A study of Mus musculus with 12 samples.

Results

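The endocytic machinery of the renal proximal tubule was followed through 8 genes: Lrp2, which encodes megalin, Cubn (cubilin), Amn (amnionless), Dab2, Lrpap1 (the receptor-associated protein), Clcn5, Ocrl and Folr1 (folate receptor alpha). They were chosen by name as the receptors, chaperone, adaptor and endosomal proteins of 1 uptake system, and each matched 1 of the 52636 genes measured. RNA of mouse kidney was sequenced in 12 libraries, 3 in each of 4 groups. All mice were male wild-type C57BL/6 animals aged 8 weeks. The control group was given corn oil by gavage and saline by injection. The PCN group was given saline and the compound pregnenolone carbonitrile (PCN), which is a synthetic steroid agonist of the pregnane X receptor of rodents, at 40 mg/kg a day by gavage for 4 days before the injection and 3 days after it. The cisplatin group was given corn oil and 1 intraperitoneal injection of 20 mg/kg cisplatin, a platinum drug toxic to the tubule. The fourth group, cisplatin+PCN, was given PCN and cisplatin at those doses, and all kidneys were taken 4 days after the injection. The protocol mentions the cisplatin group among the PCN-pretreated animals as well as among those given oil, and the library titles were followed here. Nothing in the labels states outright that each library came from its own animal, so p-values measure only the spread between libraries, which may be partly technical.

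The proximal tubule takes up the proteins, carrier-bound vitamins and hormones that pass the glomerular filter. Megalin, a giant receptor of the LDL receptor family, and cubilin, a peripheral protein that amnionless anchors and carries to the brush border, bind these ligands and enter the cell through clathrin-coated pits. Dab2 is an adaptor that links the tail of megalin to the clathrin coat, and the receptor-associated protein is a chaperone that holds megalin free of ligand in the endoplasmic reticulum. Clcn5 encodes a chloride-proton exchanger of endosomes and Ocrl a phosphoinositide phosphatase of endosomes and coated pits. Their loss causes Dent disease and Lowe syndrome, inherited disorders with protein in the urine, while defects of cubilin or amnionless cause Imerslund-Gräsbeck syndrome, a failure of cobalamin uptake. Folate receptor alpha is a lipid-anchored receptor that retrieves filtered folate at the same brush border.

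Depth was 18914607 to 26530485 reads on genes in a library. The values are FPKM, that is fragments scaled by gene length and by a total for each library, which allow levels to be compared between genes. This total was not the reads on genes: in cisplatin+PCN replicate 2 it was 25458637 against 22980233 reads. Rescaling the values by median of ratios left the median difference and the number of calls unchanged in all 6 comparisons. An FPKM of 1 stood for 18.7 to 27.2 reads per kilobase, so Lrp2 rested on 4646 to 49495 reads a library and Ocrl, with the fewest reads of the 8 genes, on 384 to 586. The labelled tissue was checked with 19 marker genes of the proximal tubule, all of which were expressed. Their mean log2(FPKM + 1) was 8.87 to 8.93 in control, 8.88 to 8.92 with PCN, 6.04 to 6.38 with cisplatin, and 7.67, 6.36 and 7.05 in replicates 1, 2 and 3 of cisplatin+PCN. Differences between groups were tested with limma on log2(FPKM + 1) over the 13540 genes that reached an FPKM of 1 in 3 or more of the 12 libraries, with Benjamini-Hochberg adjustment over all of them, and a gene passed at an adjusted p under 0.05. Fold differences are ratios of mean FPKM. With 3 libraries against 3 an exact permutation test cannot give a p below 0.1, so none was used. All 8 genes were above the minimum in 12 of 12 libraries, so none entered the test through 1 group alone.

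Of the 8 genes 6 were abundant messages of untreated kidney, from Cubn, above 86.5% of tested genes, upward. Folr1 was highest at 154 ± 8.69 FPKM (SD, n = 3), above 97.6% of tested genes. Lrpap1 followed at 126 ± 3.41 and Lrp2 at 123 ± 8.02 FPKM, and the ranges of these receptor and chaperone messages overlapped. Amn stood at 80.3 ± 2.97, Dab2 at 55.0 ± 2.59, Cubn at 29.1 ± 2.25, Clcn5 at 13.3 ± 0.276 and Ocrl at 2.28 ± 0.0718 FPKM, each separate from its neighbours in this order. Amnionless message per length was thus 2.77 ± 0.298 times (SD, n = 3) that of its partner cubilin. Ocrl was the only one of the 8 genes below the median, above 25.5% of tested genes.

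On GRCm38, Lrp2 (ENSMUSG00000027070) spans chr2:69424340-69586065 on the minus strand and Cubn (ENSMUSG00000026726) chr2:13276338-13491813, also on the minus strand. Amn (ENSMUSG00000021278) lies at chr12:111271095-111276426 on the plus strand, Dab2 (ENSMUSG00000022150) at chr15:6299788-6440712 on the plus strand and Lrpap1 (ENSMUSG00000029103) at chr5:35091501-35105766 on the minus strand. Clcn5 (ENSMUSG00000004317) at chrX:7153810-7319358, minus strand, and Ocrl (ENSMUSG00000001173) at chrX:47912387-47965868, plus strand, are the X-linked genes of the set. Folr1 (ENSMUSG00000001827) lies at chr7:101858331-101870788 on the minus strand. Values cover the union of each gene's exons, from 1843 bases in Amn to 16701 in Lrp2. Cubn shares 368 exon bases with Gm13270 on the other strand, which was at most 0.170 FPKM. Folr1 overlaps Anapc15 and Dab2 overlaps Gm16311 on the other strand with 0 shared exon bases, and no source used here says whether the libraries are stranded.

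The promoters of 4 of the 6 genes that were lower in the cisplatin libraries are shown. Folr1, which was also lower, has no RefSeq window, and those of Clcn5 are not printed. The printed stretches are the bases just upstream of the RefSeq start that lie outside annotated exons. They come from the GRCm38.p6 windows of RefSeq and are read 5′ to 3′ on the strand of the gene. Lrp2 is chr2:69586066-69586279 (minus), Cubn chr2:13491877-13492126 (minus), Amn chr12:111270846-111271094 (plus) and Lrpap1 chr5:35105767-35105949 (minus). Capitals mark matches, on either strand, to a GC box (GGGCGG) or an E-box (CACGTG).
Lrp2: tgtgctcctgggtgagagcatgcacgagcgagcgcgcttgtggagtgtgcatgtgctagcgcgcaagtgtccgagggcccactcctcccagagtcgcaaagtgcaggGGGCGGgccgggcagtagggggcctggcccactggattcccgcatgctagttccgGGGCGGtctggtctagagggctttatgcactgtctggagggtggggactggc
Cubn: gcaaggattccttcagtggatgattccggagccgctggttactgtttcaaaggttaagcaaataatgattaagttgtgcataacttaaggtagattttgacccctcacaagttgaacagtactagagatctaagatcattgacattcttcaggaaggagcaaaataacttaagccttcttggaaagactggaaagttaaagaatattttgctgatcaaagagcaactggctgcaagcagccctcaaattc
Amn: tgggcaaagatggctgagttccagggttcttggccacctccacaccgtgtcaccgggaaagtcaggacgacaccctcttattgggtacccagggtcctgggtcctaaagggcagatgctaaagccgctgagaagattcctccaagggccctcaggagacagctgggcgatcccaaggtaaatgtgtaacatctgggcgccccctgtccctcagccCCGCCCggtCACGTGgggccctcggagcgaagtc
Lrpap1: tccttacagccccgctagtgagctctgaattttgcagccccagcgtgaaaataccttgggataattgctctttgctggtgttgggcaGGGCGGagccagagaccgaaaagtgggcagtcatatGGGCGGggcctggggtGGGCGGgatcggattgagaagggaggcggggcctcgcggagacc

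These promoters differ in composition. The GC content of the printed stretch was 65.9% for Lrp2, 61.0% for Amn and 60.7% for Lrpap1 against 39.6% for Cubn, and the 250 bases before the start held 18, 11 and 14 CpG sites against 2. Of the 8 genes 7 had RefSeq windows, 9 in all since Dab2 and Clcn5 have 2 starts each, and these 250-base windows were searched on both strands for 5 motifs. No match of 1 motif overlapped a match of another. The GC box was found in 5 of the 9 windows (those of Lrp2, Amn, Lrpap1 and Ocrl and 1 of Clcn5) and in 32.7% of all 32851 windows of the same length. The E-box was found in Amn alone, against 6.02% of all windows. An HNF1 half-site (GTTAAT, 6.43% of all windows) was found in Dab2, an HNF4 core (CAAAGTCC, 1.2%) in Ocrl and a TATA box (TATAAA, 12.4%) in Clcn5. A match is a run of letters and not a measured binding site, and Cubn held none of the 5 motifs in this window.

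Cisplatin against control asks how the uptake machinery stands 4 days after the toxic dose. Of the 8 genes 6 were lower and 1 was higher, while 32.0% of all tested genes were higher and 31.9% lower. Lrp2 and Cubn had the lowest log2 differences of the 8, and Ocrl did not pass. The median log2 difference of the 8 genes was -1.07, against 0.01 for all genes tested. The FPKM ranges of cisplatin and control did not overlap for the same 6 genes, all lower (34.1% of tested genes), nor for Dab2, higher (33.6%).

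Megalin message was the lowest relative to control. Lrp2 was at 119, 118 and 132 FPKM in control replicates 1 to 3 and at 14.5, 17.3 and 11.6 in the cisplatin libraries. Every cisplatin library was far below every control library, with a mean of 14.4 ± 2.87 FPKM, or 11.7% of control. The log2 difference was -3.02 (SE 0.16, limma adjusted p = 1.47e-07), with a 95% interval from -3.38 to -2.66.

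Cubilin message fell less than megalin message. Cubn was at 27.6, 28.2 and 31.7 FPKM in control and at 6.26, 7.57 and 5.30 with cisplatin. The groups were well separated, and the mean of 6.38 ± 1.14 FPKM was 21.9% of control. Its log2 difference was -2.04 (SE 0.17, limma adjusted p = 1.98e-06), a 4.57-fold lower level. Amn, the membrane anchor of cubilin, was at 83.3, 80.1 and 77.4 FPKM in control and at 45.7, 41.1 and 36.1 with cisplatin. Its groups did not overlap either, but it kept 51.0% of the control mean, with a log2 difference of -0.96 (SE 0.17, limma adjusted p = 0.000448).

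The chaperone and the folate receptor lay between these extents. Lrpap1 was at 126, 129.7 and 123 FPKM in control and at 41.9, 44.2 and 40.9 with cisplatin, 3 close values with a coefficient of variation of 3.94%. It stood at 33.6% of control, with a log2 difference of -1.55 (SE 0.11, limma adjusted p = 1.01e-06). Folr1 was at 147, 164 and 152 FPKM in control and at 76.8, 60.0 and 65.7 with cisplatin, every cisplatin library below every control library (mean 67.5 ± 8.54). Its log2 difference was -1.19 (SE 0.20, limma adjusted p = 0.000319), a 2.29-fold lower level.

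The endosomal exchanger and phosphatase differed least from control. Clcn5 was at 13.4, 12.9 and 13.4 FPKM in control and at 11.2, 11.3 and 8.41 with cisplatin. All 3 cisplatin libraries lay below control, replicate 3 by the most, and the log2 difference was -0.35 (SE 0.09, limma adjusted p = 0.00677). Ocrl was at 2.22 to 2.36 FPKM in control and 1.94 to 2.41 with cisplatin. These ranges overlapped, and the log2 difference of -0.06 did not pass (limma adjusted p = 0.476, 95% interval -0.21 to 0.09).

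Dab2, the adaptor of megalin, was the exception in direction. It was at 53.3, 58.0 and 53.8 FPKM in control and at 79.9, 61.2 and 76.6 with cisplatin. All cisplatin libraries were above control, replicate 2 only just, and the mean of 72.6 ± 9.996 FPKM was 132% of control. The log2 difference was 0.38 (SE 0.15, limma adjusted p = 0.0432, 95% interval 0.05 to 0.72). This call is close to the threshold. It was lost with no filter on low values (adjusted p = 0.0858), when the libraries were rescaled on genes other than the 50 highest and the mitochondrial ones (log2 difference 0.33), and without any 1 of the control or PCN libraries or cisplatin replicate 1 or 3 (adjusted p from 0.0539 to 0.139).

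Dab2 is made by macrophages and mesenchymal cells as well as by the tubule. The summed FPKM of 13 macrophage genes was 96.1 to 117 in control and 133 to 177 with cisplatin, with 3 of the 10 tested genes higher and 2 lower. For 8 fibroblast genes the sums were 23.4 to 38.9 and 59.4 to 66.7, with 5 of 7 tested genes higher and 0 lower. No gene of either list was at 0 throughout a group. The part of these cells in the Dab2 values was not tested.

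**Figure D1:**
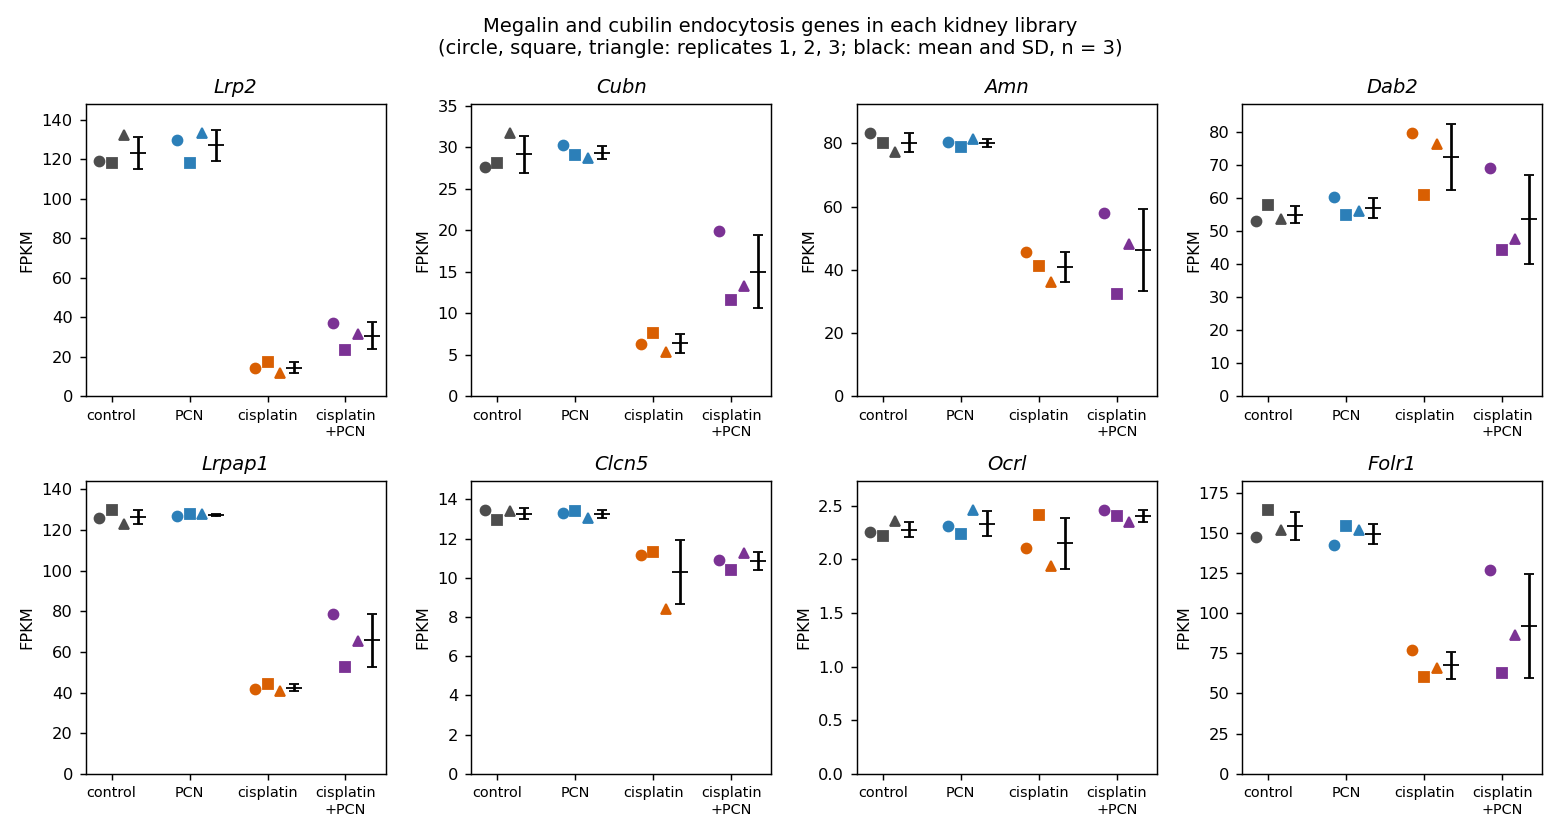
FPKM of the 8 genes in each library (circle, square and triangle for replicates 1, 2 and 3) with the mean and SD of each group in black, on a linear axis from 0, for control, PCN, cisplatin and cisplatin+PCN. The cisplatin points of Lrp2 lie between 11.6 and 17.3 against 118 to 132 in control, while those of Dab2 lie above control and those of Ocrl overlap it.

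The falls ran beside a fall of the tubule's own markers. Of the 19 proximal tubule genes 17 were lower with cisplatin and 0 higher, with a median log2 difference of -2.25. In these whole-kidney libraries fewer tubule cells and less RNA per cell cannot be told apart. Lrp2, at -3.02, was lower than that median, and 8 of the 19 markers had a still lower value. Cubn, at -2.04, was near it, with 11 markers lower. Lrpap1 and Folr1 each had 14 of 19 markers below them, Amn 16, and Clcn5 and Ocrl 17. Of 6 thick ascending limb genes 5 were lower (sums of 1436 to 1786 FPKM in control and 851 to 1227 with cisplatin), and of 9 tested podocyte genes 3 were higher and 4 lower, where 32.0% of all tested genes were higher and 31.9% lower.

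The order of the messages changed with these unequal differences. With cisplatin Dab2 and Folr1 were the highest of the 8 and overlapped, then came Lrpap1 and Amn, which overlapped, and then Lrp2, Clcn5, Cubn and Ocrl, each separate from the next. Megalin thus went from above Amn and Dab2 to below them, and cubilin from above Clcn5 to below it.

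Ratios of FPKM between genes of 1 library show this unequal change directly and are given as a description. The ratio of Lrp2 to Cubn was 4.22 ± 0.0765 (SD, n = 3) in control, 4.33 ± 0.289 with PCN, 2.26 ± 0.0647 with cisplatin and 2.08 ± 0.272 with cisplatin+PCN. Both cisplatin-treated groups were thus below both others in every library. The ratio of Amn to Cubn went from 2.77 ± 0.298 in control to 6.51 ± 0.966 with cisplatin and was 3.10 ± 0.437 with cisplatin+PCN, where the range overlapped that of control. Lrpap1 to Lrp2, the chaperone to its client, was 1.03 ± 0.0893 in control, 3.00 ± 0.498 with cisplatin and 2.15 ± 0.101 with cisplatin+PCN. Dab2 to Lrp2, the adaptor to its receptor, was 0.449 ± 0.0425, 5.23 ± 1.56 and 1.76 ± 0.226 in the same order. For the endosomal pair, Clcn5 to Ocrl was 5.82 ± 0.141 in control, 4.78 ± 0.499 with cisplatin and 4.52 ± 0.249 with cisplatin+PCN.

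**Figure D2:**
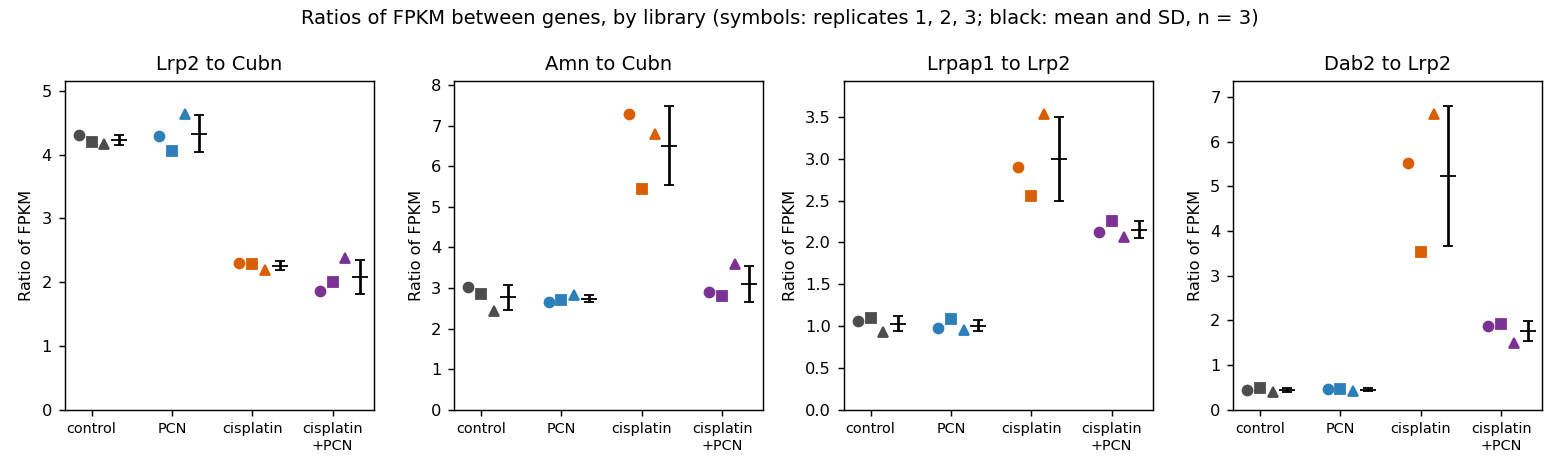
Ratio of FPKM between 2 of the genes within each library (symbols for replicates 1, 2 and 3) by group, with the mean and SD in black, on linear axes from 0. Lrp2 to Cubn lies between 4.06 and 4.64 in the control and PCN libraries and between 1.86 and 2.38 in the 6 libraries given cisplatin, while Amn to Cubn is high with cisplatin alone.

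PCN against control asks whether PCN alone moves these genes in uninjured kidney. None of the 8 genes passed, and 0% of all tested genes did (0 of 13540, with 438 at an unadjusted limma p under 0.05; limma-voom also called 0). The FPKM ranges overlapped for all 8 genes, against 13.3% of tested genes whose ranges did not. Log2 differences ran from -0.05 for Folr1 to 0.05 for Dab2. Lrp2 was at 129.5, 118 and 133 FPKM with PCN, and Cubn at 30.2, 29.1 and 28.8, all within or next to the control values given above. The 95% interval was widest for Folr1, from -0.48 to 0.39, and narrowest for Ocrl, from -0.13 to 0.18, so differences within these intervals remain possible. The intervals are not adjusted for the number of genes tested, so their bounds are not the smallest difference that would pass. They also rest on 1 spread shared by all 4 groups and do not measure that of control and PCN alone. For Folr1 the coefficient of variation was 5.63% in control and 4.13% with PCN, but 12.7% with cisplatin and 35.2% with cisplatin+PCN.

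Cisplatin+PCN against cisplatin asks whether PCN changes the state of the machinery after the toxic dose. Lrp2, Cubn and Lrpap1 were higher with PCN, and no member was lower, while 7.97% of tested genes were higher and 7.61% lower. The FPKM ranges did not overlap for these 3 genes, which was so in this direction for 14.8% of tested genes. The median log2 difference of the 8 genes was 0.27, against 0.00 for all genes tested. This comparison shares the cisplatin libraries with the one above, so the 2 sets of differences are not independent.

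Cubn was at 20.0, 11.6 and 13.3 FPKM with cisplatin+PCN, against 6.26, 7.57 and 5.30 with cisplatin. Each library with PCN was above each without, replicate 1 by the most, and the level was 2.35-fold higher (log2 difference 1.09, SE 0.17, limma adjusted p = 0.00706). Lrp2 was at 37.0, 23.3 and 31.8 FPKM with PCN, against 14.5, 17.3 and 11.6, a 2.12-fold higher level. Its groups were again separate (log2 difference 1.03, SE 0.16, limma adjusted p = 0.00747). Lrpap1 was at 78.9, 52.6 and 65.6 FPKM, against 41.9, 44.2 and 40.9, and was 1.55-fold higher with no overlap (log2 difference 0.60, SE 0.11, limma adjusted p = 0.0117). All 3 calls held when any 1 library was left out, but none did in a fit of the 6 libraries compared, where the adjusted p was 0.117 for Lrp2 and Cubn and 0.126 for Lrpap1 and 1 gene passed in all.

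The cubilin anchor and the folate receptor did not pass. Amn was at 58.1, 32.5 and 48.1 FPKM with cisplatin+PCN, spread on both sides of the cisplatin libraries, and its log2 difference was 0.14 (limma adjusted p = 0.589, 95% interval -0.23 to 0.50). Folr1 was at 127, 63.0 and 86.4 FPKM, with 1 library inside the cisplatin range, and its log2 difference was 0.39 (limma adjusted p = 0.190, interval -0.04 to 0.83). Its SE was 0.20 with the spread shared by all 4 groups and 0.25 in the fit of the 6 libraries compared. Without cisplatin+PCN replicate 2 both passed, Amn at 0.37 (adjusted p = 0.0371) and Folr1 at 0.63 (adjusted p = 0.0180).

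Dab2 was at 69.2, 44.4 and 47.6 FPKM with cisplatin+PCN, against 79.9, 61.2 and 76.6 with cisplatin. The ranges overlapped through replicate 1, and the log2 difference of -0.44 (SE 0.15) did not pass (limma adjusted p = 0.0684, 95% interval -0.78 to -0.11). In 18 of 22 alternatives it did not pass either, among them the fit of the 6 libraries compared (limma adjusted p = 0.225). It passed without that library (-0.64, adjusted p = 0.0167), without cisplatin replicate 2 (-0.56, adjusted p = 0.0277) and with limma-voom on recovered reads (-0.46, adjusted p = 0.0206). It also passed with array weights (-0.64, adjusted p = 0.00125), where cisplatin+PCN replicate 3 had a weight of 8.00. The macrophage sum was 86.8 to 149 FPKM and the fibroblast sum 32.2 to 52.6 with cisplatin+PCN, and their part in this value was not tested. Clcn5, at 10.9, 10.4 and 11.3 FPKM, and Ocrl, at 2.35 to 2.46, overlapped the cisplatin libraries, with log2 differences of 0.08 (limma adjusted p = 0.577) and 0.11 (limma adjusted p = 0.275).

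The 3 cisplatin+PCN libraries did not stand alike. Replicate 1 had the highest value of the group for 7 of the 8 genes and replicate 2 the lowest for 7 of 8. The proximal tubule markers ran in the same order, with summed FPKM of 16892 in replicate 1, 8256 in replicate 2 and 9763 in replicate 3, against 7379 to 9069 with cisplatin. Of the 19 markers 9 were higher with cisplatin+PCN than with cisplatin, with a median log2 difference of 0.83. Lrp2 and Cubn each exceeded 14 of the 19 markers in this difference, Lrpap1 7, Folr1 5 and Amn 2. Their part in the gene values was not tested. Without replicate 1 the log2 differences were 0.89 for Lrp2 (adjusted p = 0.0202), 0.88 for Cubn (adjusted p = 0.00782) and 0.46 for Lrpap1 (adjusted p = 0.0206).

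**Figure D3:**
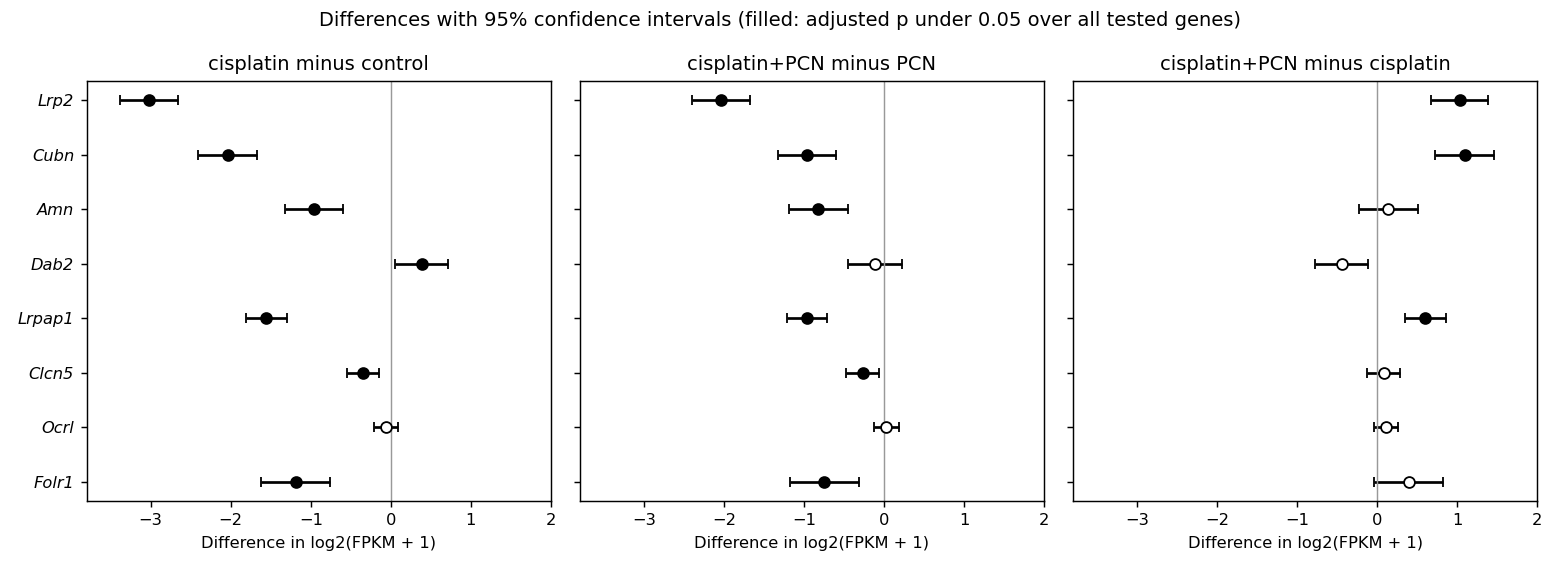
Log2 difference of each gene in log2(FPKM + 1) with its 95% interval, in panels for cisplatin minus control, cisplatin+PCN minus PCN and cisplatin+PCN minus cisplatin; filled points passed the test. Lrp2 and Cubn lie at -3.02 and -2.04 in the first panel and at 1.03 and 1.09 in the last, where Amn, Dab2, Clcn5, Ocrl and Folr1 are open.

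Cisplatin+PCN was also set against the groups without cisplatin, to show how much of the fall remained. Against control 6 of the 8 genes were lower (23.6% of tested genes) and 0 higher, and the same 6 had ranges below control with no overlap (28.8%). Against PCN the same 6 were lower (23.4%) with no overlap (29.3%). On the recovered reads 60.2% and 62.0% of all calls in these comparisons were rises, against 49.3% and 50% here. With rescaling without the 50 highest and mitochondrially encoded genes the shares were 44.4% and 44.3%. Lrp2 was at 24.9% of the control mean (log2 difference -1.99, limma adjusted p = 5.05e-06), Cubn at 51.4% (-0.95, adjusted p = 0.000873) and Lrpap1 at 52.0% (-0.95, adjusted p = 7.29e-05). Amn stood at 57.6%, Folr1 at 59.7% and Clcn5 at 81.9% of control, with adjusted p of 0.00217, 0.00683 and 0.0344. The Clcn5 calls were lost with no filter (adjusted p = 0.0634 against control and 0.0630 against PCN), on the recovered reads, and without any 1 library of the groups compared. Dab2 was at 97.7% and Ocrl at 106% of control, and neither passed in either comparison. With array weights Dab2 passed as lower, by -0.20 against control (adjusted p = 0.0308) and -0.24 against PCN (adjusted p = 0.00893), and without cisplatin+PCN replicate 1 it passed against PCN (-0.31, adjusted p = 0.0387). Without replicate 2 its difference against PCN was 0.00901 and did not pass.

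A member's cisplatin effect with PCN can be tested against that without it, as an interaction over all 4 groups. The difference was 1.08 ± 0.23 (SE) on the log2 scale for Cubn (limma adjusted p = 0.102), 0.98 ± 0.23 for Lrp2 (adjusted p = 0.102) and 0.59 ± 0.16 for Lrpap1 (adjusted p = 0.121). For Dab2 it was -0.50 ± 0.21 (adjusted p = 0.239). None of the 8 genes passed, and 0.111% of all tested genes did, so a different response to cisplatin under PCN was not shown for any of them. Leaving out cisplatin+PCN replicate 2 gave adjusted p of 0.0202 for Lrp2, 0.0241 for Cubn and 0.0121 for Lrpap1, and 493 of all tested genes passed. Leaving out cisplatin replicate 2 gave 0.0216 for Lrp2 and 0.0201 for Cubn, and 1066 of all tested genes passed. The result was unchanged in 18 of 21 alternatives for Lrp2, 17 of 21 for Cubn and 19 of 21 for Lrpap1.

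Genes of the same route, on lists picked by function, were then counted for cisplatin against control, to be read against the 32.0% of all genes higher and 31.9% lower. Among 23 genes of the clathrin coat and its adaptors, 10 were higher and 3 lower (median log2 difference 0.15). The epsin gene Epn2 rose from 6.47 ± 0.266 to 10.97 ± 1.09 FPKM (0.68, limma adjusted p = 4.06e-05), and Gipc1, whose product binds the megalin tail, rose by 0.58 on the log2 scale. Myo6, the motor that carries coated vesicles inward, fell from 35.0 ± 1.72 to 22.9 ± 1.10 FPKM (-0.59).

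Early and recycling endosomes and their acidification held more falls than rises. Of 33 tested genes of these endosomes 17 were lower and 8 higher (median -0.23). Rab11fip3, an effector of the recycling GTPase Rab11, fell from 67.7 ± 2.60 to 18.7 ± 1.76 FPKM (-1.81, limma adjusted p = 6.47e-07), Snx27 fell by 0.85 and Ehd3 by 0.81 on the log2 scale, while Rab11b (0.62) and Rabgef1 (0.56) rose. Ehd3 is also 1 of 9 endothelial marker genes, of which 4 were lower and 2 higher, and the part of endothelial cells was not tested. Of 24 acidification genes (the proton pump, chloride exchangers, Ostm1 and the sodium-proton exchanger Slc9a3) 12 were lower and 3 higher (median -0.26). Clcn3, a relative of Clcn5, fell from 12.2 ± 0.452 to 6.98 ± 0.275 FPKM (-0.73). The pump subunit genes Atp6v1b1 (-1.32) and Atp6v1a (-0.64) fell, and Atp6v0a1 (from 7.78 ± 0.428 to 18.6 ± 1.78 FPKM) and Atp6v0a4 (0.60) rose. Atp6v1b1 is made by intercalated cells, whose 9 marker genes summed to 171 to 182 FPKM in control and 125 to 133 with cisplatin, and their part was not tested. Among 16 tested genes of endosomal phosphoinositides (kinases and phosphatases, with Pik3r4 and Fam109a) 5 were higher and 4 lower (median -0.08). Inpp5b, the closest relative of Ocrl, fell from 19.9 ± 0.211 to 14.7 ± 2.17 FPKM (-0.43, limma adjusted p = 0.00396).

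Of 15 tested LDL receptor family genes and regulators 5 were higher and 4 lower (median -0.17), close to the shares over all genes, with Lrp1, a megalin relative of many cell types, rising from 4.60 ± 0.679 to 10.97 ± 1.92 FPKM (1.09, limma adjusted p = 3.46e-05) and Vldlr falling from 12.5 ± 0.784 to 8.45 ± 1.49 FPKM (-0.52). Among 10 tested other uptake receptors 5 were higher and 2 lower (median 0.14). Havcr1, the injury marker KIM-1 and a receptor for dying cells, went from 0.602 ± 0.180 to 340 ± 136 FPKM (log2 difference 7.67, limma adjusted p = 8.34e-06). Slc22a17, a receptor for lipocalin 2, fell from 14.3 ± 1.15 to 6.72 ± 0.254 FPKM (-0.98).

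Folate and cobalamin genes, which handle the vitamins this system retrieves, mostly fell: 16 of 20 were lower and 1 higher (median -0.58). Slc46a1, the proton-coupled folate transporter, went from 12.4 ± 0.977 to 3.77 ± 0.422 FPKM (-1.49, limma adjusted p = 1.42e-06). Mut, the cobalamin-dependent mutase, fell by 1.66 and Shmt2, a mitochondrial folate enzyme, by 1.73 on the log2 scale. Slc19a1, the reduced folate carrier, rose by 0.26. Genes that encode ligands of megalin or cubilin split: 10 of 21 tested were higher and 5 lower (median 0.36). Lcn2, which encodes lipocalin 2, went from 0.957 ± 0.216 to 717 ± 94.6 FPKM (8.52, limma adjusted p = 1.31e-09) and Mt1, a metallothionein whose reads a near-identical copy could share, from 77.5 ± 11.1 to 1559 ± 225. Apom (-2.45) and Ttr (-2.20) fell. Of 11 tubule transcription factors 4 were lower and 2 higher (median -0.21). Hnf4a fell from 212 ± 10.6 to 104 ± 10.9 FPKM (-1.03, limma adjusted p = 0.00321) and Esrra by 1.68 on the log2 scale, while Ppara rose by 0.67.

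**Figure D4:**
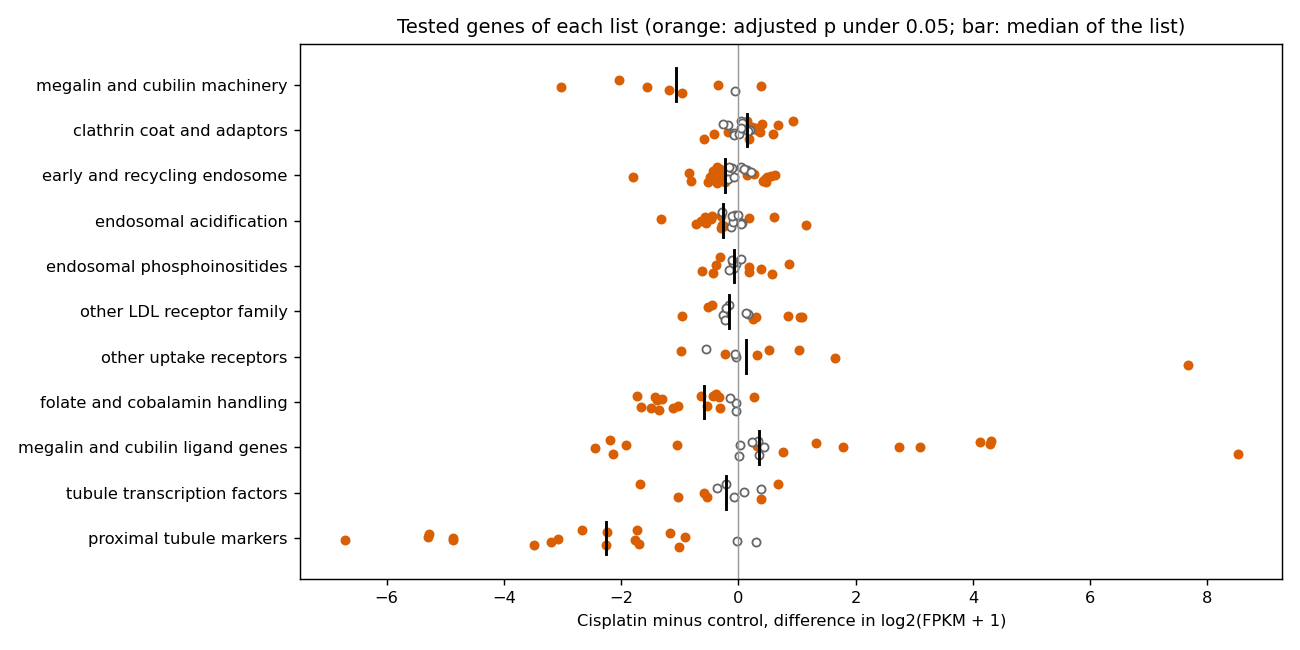
Difference in log2(FPKM + 1), cisplatin minus control, of each tested gene of the endocytosis set, of 9 lists of related genes and of the proximal tubule markers. Filled orange points passed the test, open points did not, and the black bar is the median of the list: -1.07 for the 8 endocytosis genes, -0.58 for folate and cobalamin handling and -2.25 for the tubule markers.

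In cisplatin+PCN against cisplatin, where 7.97% of tested genes were higher and 7.61% lower, few genes of these lists passed apart from the vitamin genes. Of the 20 folate and cobalamin genes 11 were higher and 0 lower (median 0.40). Among them were Shmt2 (0.88), Mut (0.79) and Mmab, which makes the active cobalamin cofactor. Mmab was at 5.88 ± 0.712 FPKM with cisplatin+PCN against 2.77 ± 0.737 with cisplatin (0.88, limma adjusted p = 0.00706). Of the clathrin genes 0 were higher and 2 lower, with Epn2 among them (-0.42). The endosome list had 2 higher, Rab11fip3 (0.64, limma adjusted p = 0.0124) and Vps45 (0.41), and 1 lower, Rab11fip5 (-0.47). The acidification list had 2 higher and 2 lower, the phosphoinositide list 1 and 1, the LDL receptor family 1 and 2, the other uptake receptors 1 and 1, the ligands 0 and 3, and the transcription factors 1 and 0. Mt1 was among the ligands that were lower (-0.89, limma adjusted p = 0.0169), and the factor was Esrra (0.58). As replicate 1 of cisplatin+PCN was also highest for the tubule markers, the part of the tubule's share of the tissue in the vitamin genes was not tested. In a fit of only the 6 libraries compared, 0 of all tested genes were higher and 1 lower. None of the rises in these lists, the 11 vitamin genes included, held there.

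The genes most like each member were taken by Pearson's r of log2(FPKM + 1) over the 12 libraries, which share 4 groups, so that any gene with the same group pattern scores high. Lrp2 was closest to Glb1l and Lactb2 (r = 0.998 for each) and Slc6a20b (0.997). Lactb2, which went from 219 ± 18.9 to 23.2 ± 6.39 FPKM with cisplatin, had a log2 difference of -3.22, near that of Lrp2. Cubn was closest to Suox (0.996), Slc5a12 and D2hgdh (0.995 for each), Lrpap1 to Susd2 and Aldh4a1 (0.998 for each), Amn to Ggt1 and Akr1a1 (0.990 for each) and Folr1 to Ccdc107 (0.996). Slc5a12 and Ggt1 are also on the proximal tubule marker list. Dab2 was closest to Ube2d3 (0.956), Spg21 (0.954) and the endosome gene Rab11fip5 (0.939). Clcn5 reached 0.979 with Ipo8, and Ocrl 0.872 with Slc1a4. Among the members themselves r was 0.993 for Lrp2 and Lrpap1, 0.982 for Cubn and Lrpap1, 0.975 for Lrp2 and Cubn. Dab2 had a negative r with each of the other 7, from -0.57 with Ocrl to -0.15 with Amn, and -0.42 with Lrp2.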

How the data were processed

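RNA of 12 mouse kidney libraries was used as gene FPKM values that the authors deposited in 1 table. HISAT2 2.0.5, featureCounts 1.5.0-p3, DESeq2 1.16.1 and edgeR 3.18.1 are listed, with no settings or roles, in the submitters' processing notes. These notes name build mm8, but the coordinates of all 8 genes are those of GENCODE M21 on GRCm38, which is used here. FPKM times gene length gave whole reads for 100% of values (within 0.001 reads), so depth was recovered. Groups were taken from the titles. The 12 pairs of libraries within a group differed beyond sampling noise (chi-square per gene 4.97 to 78.7), so none was merged.

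Groups were compared on log2(FPKM + 1) by limma (version 3.58.1, R version 4.3.3), trend option on, with all 12 libraries in 1 fit of 4 group means, two-sided, for 6 comparisons. The 4 groups shared 1 estimate of the spread of each gene. Changes of low genes are understated on this scale. The procedure was tested on simulated data with known changes. The members, lists and tests were chosen with earlier results of these data known. Named genes are the 8 members, the genes of each list with the largest differences among those that passed, and the 3 protein-coding genes most correlated with each member (the text gives a part of these, and some are not reported here). There were 10 alternatives (pseudocounts of 0.1 or 0.5; no filter or a mean FPKM minimum of 5; 2 rescalings; a fit of the compared groups alone; array weights; the replicate number as a block; and limma-voom on recovered reads) and leaving out each of 12 libraries. The array weights were estimated gene by gene, a method chosen after seeing the data, since the default did not converge. Of the 2 rescalings, median of ratios changed neither the median difference nor the number of calls in any comparison. It is counted in every number of alternatives given, but its agreement was fixed in advance.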

Additional observations from a re-analysis of the deposited data

How the results depend on the processing

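The falls of Lrp2, Cubn, Amn, Lrpap1, Clcn5 and Folr1 with cisplatin kept direction and call in 132 of 132 alternative values. For each gene 1 of the 22 alternatives, median-of-ratios rescaling, repeated the main result and is no separate check. The Dab2 rise did not: 0 members were higher with no filter and with rescaling without the 50 highest and mitochondrially encoded genes, and 0 to 1 when 1 library was left out. In cisplatin+PCN against cisplatin 0 members were higher, and 1 gene passed in all, in a fit of only those groups, and 1 member, Dab2, was lower with array weights and with limma-voom. Leaving out 1 library gave 3 to 5 members higher, 0 to 1 lower and 580 to 3390 genes in all (580 without cisplatin replicate 3, 3390 without cisplatin replicate 2). For the interaction 3 members were higher and 1 lower with array weights, 1 higher with limma-voom (Cubn, adjusted p = 0.0415), and 0 to 3 higher without 1 library, where 9 to 1066 genes passed in all. Array weights gave cisplatin+PCN replicate 3 a weight of 8.00, against 0.245 to 1.83 for the others.

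Genes passing in all numbered, with a mean FPKM of at least 5 (fewer genes tested), 5197 for cisplatin against control, 4031 for cisplatin+PCN against PCN, 4000 against control and 30 for the interaction. With no filter they numbered 2 for PCN against control, and 1008 when cisplatin+PCN was set against cisplatin. Array weights gave 5028 for cisplatin+PCN against cisplatin and 3130 for the interaction, and limma-voom 68 for the interaction, 89.7% of them higher against 66.7%. The causes were not tested. On the recovered reads, which limma-voom scaled by the reads on genes, the median of all genes shifted to 0.10 for cisplatin against control and cisplatin+PCN against PCN. Relative to it the 6 falls remain falls. Rescaling without the 50 highest and mitochondrially encoded genes shifted this median the other way, to -0.04 and -0.03.

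Values near 0 changed sign. For PCN against control these were Amn (0.00489) and Clcn5 (0.00572) with rescaling, and Cubn (-0.0146), Amn (0.0120) and Clcn5 (0.00103) with array weights. Without 1 library the ranges there were -0.0255 to 0.0723 for Cubn, -0.0273 to 0.0253 for Amn, -0.00528 to 0.0333 for Lrpap1, -0.0165 to 0.0105 for Clcn5 and -0.00138 to 0.0470 for Ocrl. For cisplatin+PCN against cisplatin they were -0.0427 to 0.37 for Amn and -0.0471 to 0.15 for Clcn5, and for the interaction -0.0412 to 0.37 and -0.0468 to 0.15. Dab2 ranged from -0.31 to 0.00901 against PCN and from -0.25 to 0.0616 against control, where limma-voom gave 0.0278. Ocrl was -0.000518 against PCN with rescaling.

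With the replicate number as a block, 6 members were lower and 1 higher for cisplatin against control and 3 higher for cisplatin+PCN against cisplatin, and no member's call changed. The numbers do not pair the libraries: of 18 same-numbered pairs 4 correlated above 0.1 in their deviations (r from -0.28 to 0.37), and 5 of 12 libraries correlated best with their own number. Depth limits Ocrl most, at 384 to 586 reads a library.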
